A study of Arabidopsis thaliana with 6 samples.

Results

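The plastid genome of Arabidopsis thaliana carries, beside its photosynthesis genes, a smaller group of genes for its own upkeep, and 24 of these were examined here. They were the plastid-genome genes whose symbols begin with rps, rpl, rpo or ycf, together with accD, clpP, matK, ccsA and cemA, wherever an array probe set was paired with exactly 1 gene. They made up 24 of 16550 genes measured under a name and 24 of the 63 plastid genes among these. Of them 13 encode ribosomal proteins (7 of the small and 6 of the large subunit), 4 encode subunits of the plastid RNA polymerase and 7 have other roles. A further 8 plastid symbols of the same kinds, rpl2, rpl22, rpl23, rps3, rps7, rps12, ycf1 and ycf2, were on probe sets shared by several gene entries and were not analysed.

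The samples were YFP-positive and YFP-negative protoplasts, with 3 Affymetrix arrays for each, numbered 1 to 3 in the sample titles. All came from cotyledons of 6-day-old seedlings carrying SEOR1pro::SEOR1-YFP, in which the promoter of the sieve element gene SEOR1 drives its own protein fused to YFP. The cotyledons had been kept for 72 hours in a medium with the auxin 2,4-D at 1.25 mg/L, the cytokinin kinetin at 0.25 mg/L and the GSK3-like kinase inhibitor bikinin at 10 µM, a culture called VISUAL that turns leaf mesophyll into vascular cells. The study labels the YFP-positive cells phloem and the YFP-negative cells non-phloem, a pool that can hold every other cell type of the cultured leaf. The labels do not say whether the arrays of a group stand for separate cultures; the p-values therefore cover only the spread between these arrays, part or all of which may be technical.

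Plastids descend from bacteria and still make some of their proteins on ribosomes of bacterial type. Their genes are read by a bacterial-type RNA polymerase, whose core is encoded in the plastid itself by rpoA, rpoB, rpoC1 and rpoC2, and by phage-type polymerases that are encoded in the nucleus and read, among others, the rpoB operon and accD. Mesophyll cells are rich in chloroplasts, while sieve elements keep small plastids with few internal membranes. Plastid genes are often transcribed together in operons, so neighbouring genes do not give independent measurements.

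The plastid housekeeping genes gave bright signals in both sorted populations, and most had slightly lower values in YFP-positive cells, but no gene passed the test. The difference, given throughout on the log2 scale as the YFP-positive minus the YFP-negative value, was negative for 22 of the 24 genes, against 54.7% of all genes and 45.8% of the brighter genes, those whose mean exceeded the mean of the array medians. The median difference was -0.35 over the 24 genes and -0.04 over all genes. In limma 0 of 24 passed an adjusted p of 0.05, where 1.08% of all genes did, and their adjusted p-values ran from 0.355 to 1.0. With the replicate number as a block, again 0 of 24 passed (0.544% of all genes), with adjusted p-values from 0.18 to 0.93. At an unadjusted p under 0.05 the unblocked limma fit gave 1 gene (7.96% of all genes), which was rpl20, and the blocked fit gave 3 (13.8% of all genes), which were rpl20, rpl14 and rpoC1, so neither share stood above the background.

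The arrays behind these differences were not alike. The medians of the 24 genes were 8.80, 8.35 and 8.40 in YFP-positive replicates 1 to 3, against 8.70, 8.70 and 9.43 in YFP-negative replicates 1 to 3. On the deposited scale YFP-negative replicate 3 was thus the highest of the 6, and pair 3, the pair of arrays numbered 3, showed the widest gap. The array medians themselves differed. Above the median of its array, the median of the 24 genes lay by 6.19, 6.15 and 5.48 in YFP-positive replicates 1 to 3. In YFP-negative replicates 1 to 3 it lay by 6.15, 6.61 and 6.63 above it. By this measure YFP-positive replicate 3 was the lowest of the 6, and YFP-negative replicates 2 and 3 were close. Of the 24 genes, 15 lay below 0 in pair 1, 16 in pair 2 and 23 in pair 3, with medians of -0.12, -0.19 and -0.71. Over all genes the shares below 0 were 30.5%, 49.4% and 48.2% in pairs 1 to 3. Over the brighter genes they were 43.4%, 43.2% and 45.6%. The median over all genes was 0.00 in each pair, but in pair 1 7907 of the 16550 genes had exactly equal values on both arrays. Over the brighter genes the pair medians were 0.00, 0.13 and 0.08. Without YFP-negative replicate 3 the median difference of the 24 genes was -0.22, and without both arrays numbered 3 it was -0.13. In 20 of the 24 genes pair 3 gave the lowest of the 3 differences. Every one of the 24 lay above its array's median on all 6 arrays, so none was read at the dim end of the scale.

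**Figure D1:**
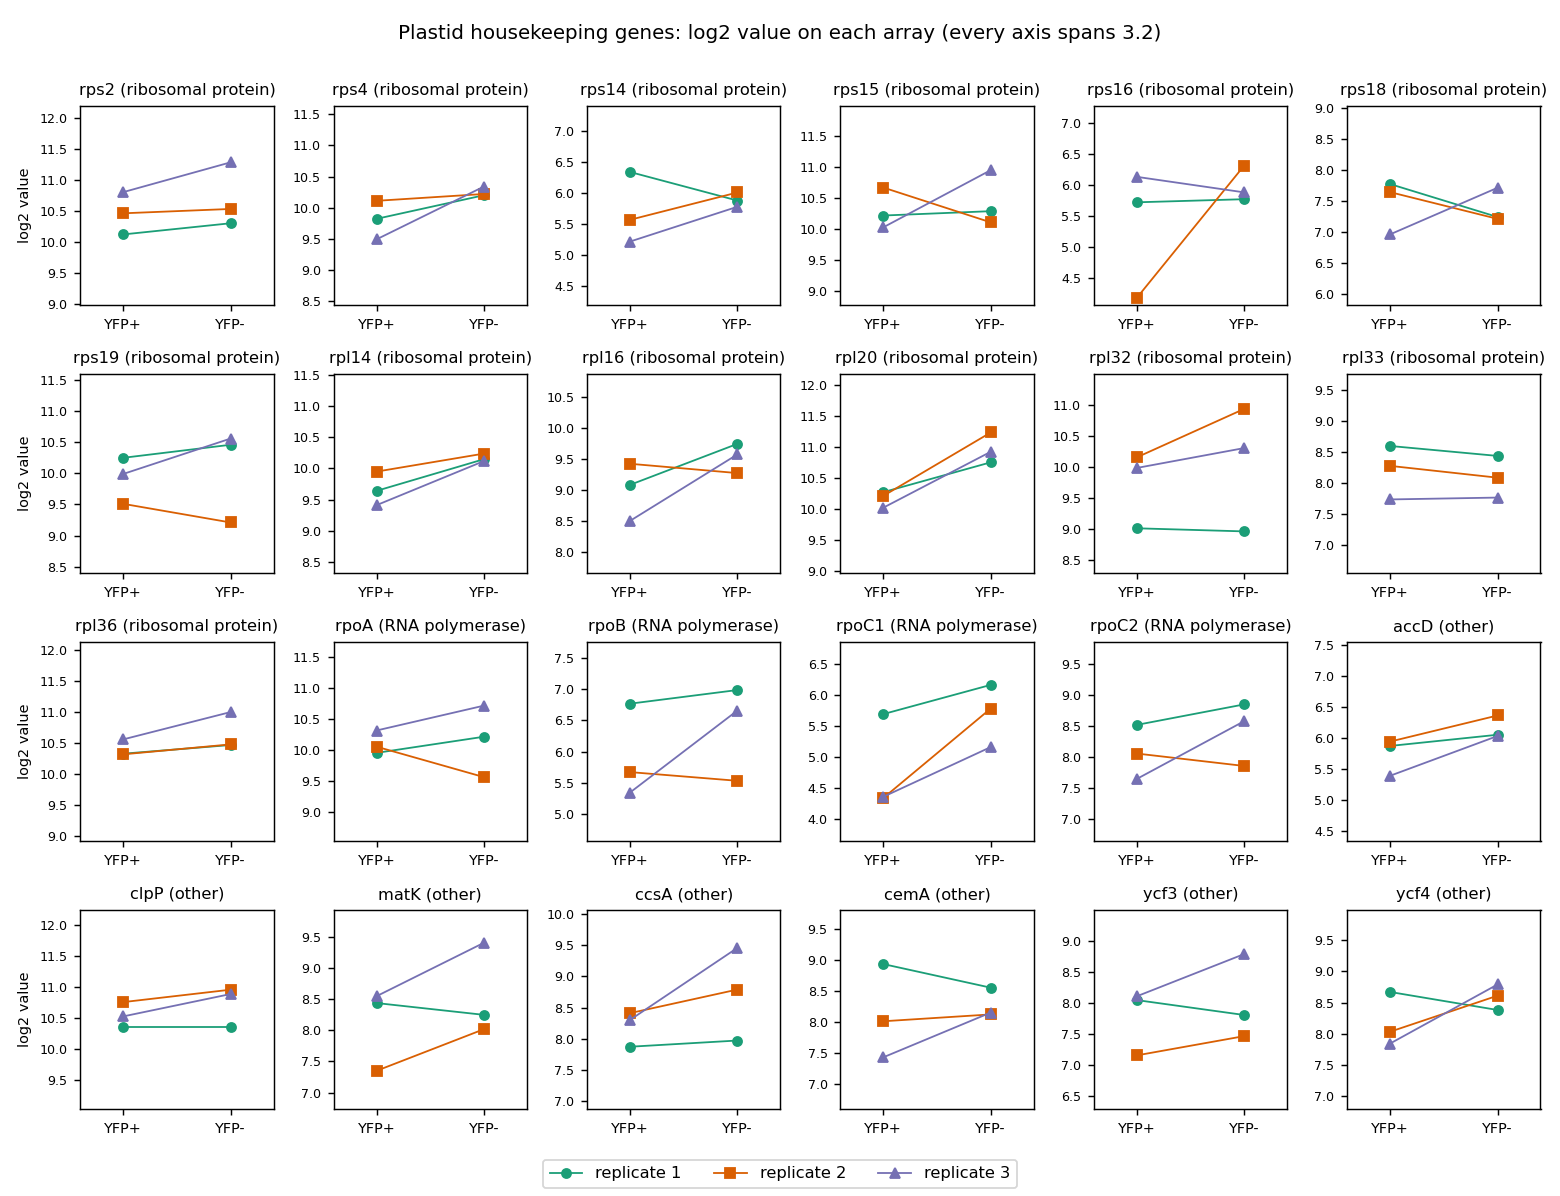
Log2 value of each of the 24 plastid housekeeping genes on the YFP-positive (YFP+) array at left and the YFP-negative (YFP-) array at right, with a line joining the arrays of 1 replicate number. Each vertical axis spans the same range; the lines of rpl20, rpl14, rps4 and accD all climb towards YFP-negative with no overlap between the groups, while those of rps18 and rps14 cross.

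Among the ribosomal protein genes, rpl20, which encodes a protein of the large subunit, had the lowest p. It stood at 10.27, 10.21 and 10.02 in YFP-positive replicates 1 to 3, against 10.75, 11.23 and 10.92 in YFP-negative replicates 1 to 3. All YFP-positive values lay under all YFP-negative values. The difference was -0.80 (SE 0.25), a ratio of 0.575. Its adjusted p from limma was 0.355 without and 0.18 with the replicate block. The blocked fit gave a 95% interval of -1.31 to -0.29 for this gene alone, which takes no account of the other genes tested.

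Next came rpl14, another large subunit gene, at 9.64, 9.95 and 9.41 in YFP-positive replicates against 10.15, 10.24 and 10.12 in YFP-negative replicates. The YFP-positive values had an SD of 0.273 and the YFP-negative values one of 0.061, and the groups did not overlap. Its difference was -0.50 (SE 0.25; limma adjusted p = 0.847). The small subunit gene rps4, whose bacterial counterpart binds the small ribosomal RNA early in assembly, stood at 9.82, 10.11 and 9.49 in YFP-positive replicates against 10.20, 10.22 and 10.34 in YFP-negative replicates. These groups also did not overlap, and the difference was -0.45 (SE 0.26). In all, 4 of the 24 genes had every YFP-positive value under every YFP-negative value (rpl20, rpl14, rps4 and accD), where 4.34% of all genes and 6.9% of the brighter genes did, and 0 of the 24 had the groups apart in the other direction.

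The other ribosomal protein genes had overlapping groups. rpl16, of the large subunit, stood at 9.08, 9.42 and 8.50 in YFP-positive replicates against 9.74, 9.27 and 9.57 in YFP-negative replicates. Its pair differences were -0.66, 0.15 and -1.07, so the sign turned in pair 2. rps2 and rpl36, of the small and the large subunit, had small negative differences in all 3 pairs, with means of -0.24 (SE 0.36) and -0.25 (SE 0.26). Without YFP-negative replicate 3 the difference of rps2 turned to 0.050 and that of rpl36 came to -0.076. rpl32, of the large subunit, varied more between numbers than between groups, with 9.01, 10.15 and 9.98 in YFP-positive replicates against 8.96, 10.93 and 10.30 in YFP-negative replicates. Its blocked SE was 0.22, against 0.59 without the block, and its difference was -0.35.

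rps16, of the small subunit, owed its difference to 1 pair. It stood at 5.72, 4.18 and 6.13 in YFP-positive replicates against 5.77, 6.31 and 5.88 in YFP-negative replicates, and only YFP-positive replicate 2 was low. The mean of -0.64 (SE 0.54) came to 0.10 without both arrays numbered 2. The small subunit genes rps15 and rps19 had positive differences in pair 2, of 0.57 and 0.30, and negative ones in pairs 1 and 3. rps14 differed by 0.46, -0.44 and -0.56 in pairs 1 to 3, and its sign turned to 0.01 without both arrays numbered 3.

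Only rpl33 and rps18 had positive mean differences. rpl33, a large subunit gene known to be dispensable in tobacco under standard growth, stood at 8.60, 8.28 and 7.74 in YFP-positive replicates against 8.44, 8.09 and 7.77 in YFP-negative replicates. The values followed the replicate number and hardly the group, and the difference of 0.10 had a 95% interval of -0.30 to 0.50 in the blocked fit. rps18, of the small subunit and next to rpl33 on the plastid genome, had pair differences of 0.53, 0.43 and -0.75 and a mean of 0.07 (SE 0.32), which became -0.02 with array medians centred. Over the 13 ribosomal protein genes the median difference was -0.25, with pair medians of -0.14, -0.11 and -0.57. It was -0.42 without YFP-negative replicate 1, -0.46 without both arrays numbered 1 and -0.15 without both numbered 3. The 7 small subunit genes had a median of -0.18 and the 6 large subunit genes one of -0.42.

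The RNA polymerase subunit genes did not share 1 pattern. rpoC1, for the beta-prime subunit, stood at 5.69, 4.34 and 4.36 in YFP-positive replicates against 6.16, 5.78 and 5.16 in YFP-negative replicates. It was lower in YFP-positive cells in every pair, with differences of -0.47, -1.43 and -0.81, although the groups overlapped. Its difference of -0.90 was the most negative of the 24 genes, with an SE of 0.48 (limma adjusted p = 0.912). The blocked fit gave an SE of 0.25 (adjusted p = 0.255). Its sign held when any 1 array was left out.

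rpoB, for the beta subunit, stood at 6.77, 5.67 and 5.34 in YFP-positive replicates against 6.99, 5.53 and 6.66 in YFP-negative replicates. rpoC2, for the beta-double-prime subunit, stood at 8.52, 8.06 and 7.65 against 8.85, 7.86 and 8.58. In both genes YFP-negative replicate 2 was the lowest of its group, so the difference was positive in pair 2 (0.15 for rpoB and 0.20 for rpoC2) and negative in pairs 1 and 3. These genes are neighbours of rpoC1 and are known to share its operon, yet rpoC1 gave its most negative difference in pair 2.

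rpoA, for the alpha subunit, lies away from the others at the end of the ribosomal protein cluster. It stood at 9.95, 10.05 and 10.31 in YFP-positive replicates against 10.21, 9.56 and 10.71 in YFP-negative replicates. Its difference was -0.05 (SE 0.35), which turned positive without YFP-positive replicate 1 (0.02) and without YFP-negative replicate 3 (0.22). Over the 4 polymerase genes the median difference was -0.41, with pair medians of -0.29, 0.17 and -0.87. The median shrank to -0.05 without both arrays numbered 3, to -0.17 without YFP-positive replicate 3 and to -0.16 without YFP-negative replicate 1. It deepened to -0.73 without YFP-positive replicate 1, to -0.75 without YFP-negative replicate 2 and to -0.63 without both arrays numbered 2.

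**Figure D2:**
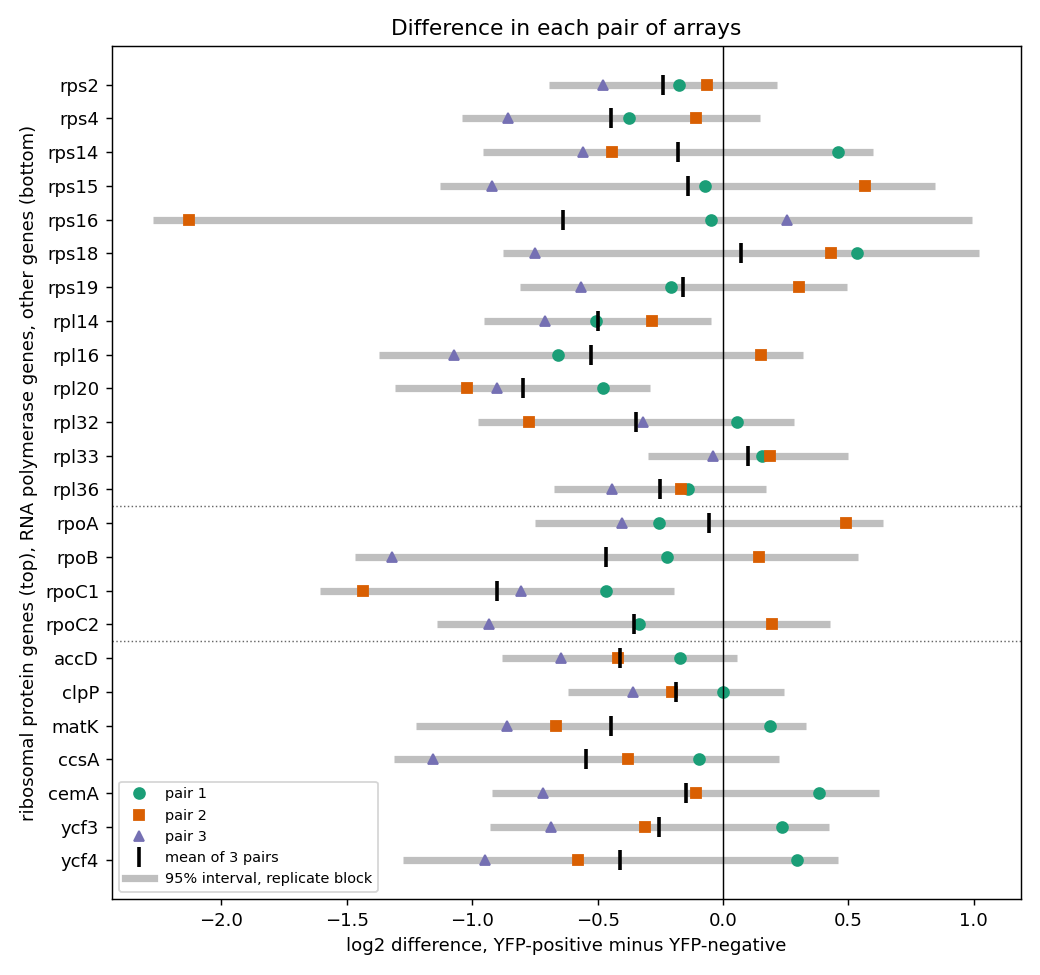
Log2 difference of each gene in pairs 1, 2 and 3 (coloured points), the mean of the 3 pairs (black tick) and its unadjusted 95% interval from limma with the replicate block (grey bar). The interval lies wholly below 0 for rpl20, rpl14 and rpoC1, and pair 3 is the leftmost point in 20 of the 24 genes.

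Of the 7 genes with other roles all had negative mean differences, and 0 passed the test. accD encodes a subunit of the plastid acetyl-CoA carboxylase, which makes the building block of fatty acids. It stood at 5.87, 5.94 and 5.39 in YFP-positive replicates against 6.05, 6.36 and 6.03 in YFP-negative replicates, without overlap. Its difference was -0.41 (SE 0.27), and limma gave adjusted p-values of 1.0 without and 0.42 with the block. Without YFP-positive replicate 3 the difference was -0.24.

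clpP, for a proteolytic subunit of the Clp protease of the stroma, had exactly equal values on both arrays of pair 1. It stood at 10.36, 10.76 and 10.53 in YFP-positive replicates against 10.36, 10.96 and 10.89 in YFP-negative replicates. Equal values (tolerance 0) occurred in pair 1 for 7907 of 16550 genes and 2302 of 8741 brighter genes, and clpP was the only 1 of the 24 genes among them. Over all 38408 probe sets 35.1% were equal in pair 1, but only 1961 in pair 2 and 1860 in pair 3. Its difference was -0.19 (SE 0.28), and it ranged from -0.38 without YFP-negative replicate 1 to -0.075 without YFP-negative replicate 2. matK, for a splicing factor of plastid introns, stood at 8.44, 7.35 and 8.55 in YFP-positive replicates against 8.25, 8.02 and 9.41 in YFP-negative replicates, a difference of -0.45 (SE 0.51) that came to -0.02 without YFP-negative replicate 3.

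ccsA, for a protein that attaches haem to cytochromes of c type, stood at 7.87, 8.41 and 8.30 in YFP-positive replicates against 7.97, 8.79 and 9.46 in YFP-negative replicates. Its difference was -0.54 (SE 0.43), below 0 in every pair, and came to -0.19 without YFP-negative replicate 3 and to -0.93 without YFP-negative replicate 1. ycf3 and ycf4 encode assembly factors of photosystem I. ycf4 stood at 8.67, 8.03 and 7.84 in YFP-positive replicates against 8.38, 8.61 and 8.79 in YFP-negative replicates, with pair differences of 0.30, -0.58 and -0.95. ycf3 had pair differences of 0.23, -0.31 and -0.69, and cemA, for a protein of the inner envelope, had 0.38, -0.11 and -0.72. The sign of cemA turned to 0.14 without both arrays numbered 3.

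These 7 genes and the polymerase genes differed in the pairs from which their negative medians came. The other genes had pair medians of 0.19, -0.38 and -0.72, with 4 of 7 above 0 in pair 1 and all 7 below 0 in pairs 2 and 3. The polymerase genes had all 4 below 0 in pair 1 and 3 of 4 above 0 in pair 2. The median of the other genes was -0.24 without YFP-positive replicate 3, -0.19 without YFP-negative replicate 3 and -0.14 without both. The difference between the classes was not tested, and genes of 1 operon count more than once in it. The pooled medians of the polymerase and the other genes, at -0.41 each, hid this.

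**Figure D3:**
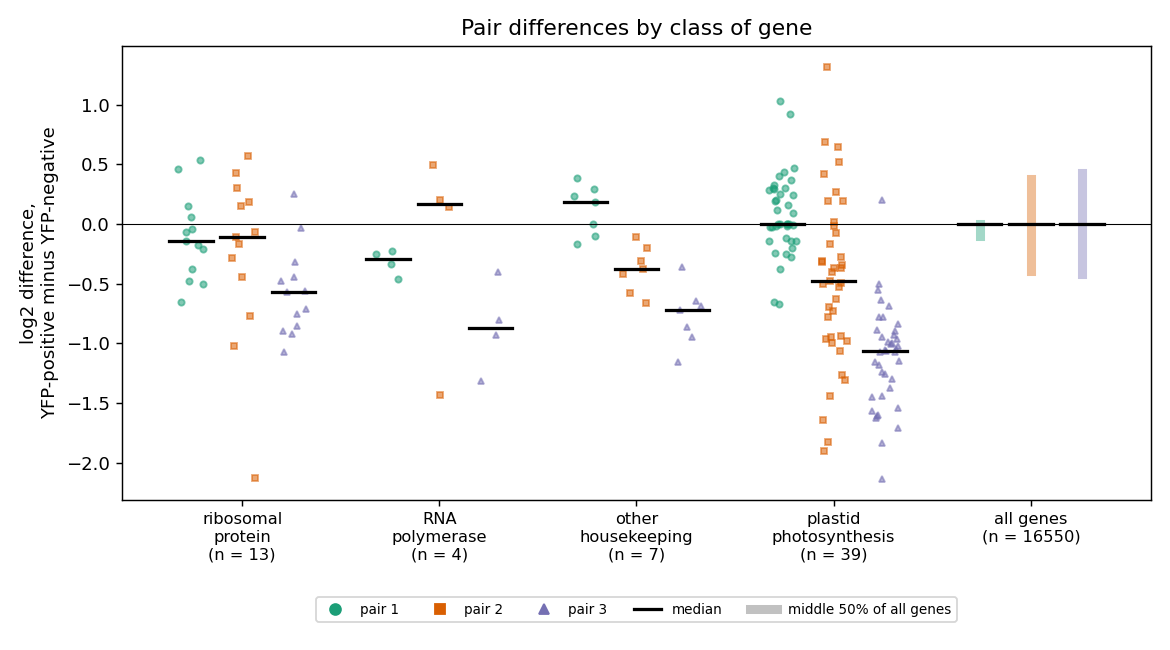
Log2 differences in pairs 1, 2 and 3 for each gene of the 3 housekeeping classes and of the plastid photosynthesis genes, with medians as black lines; for all genes the bar spans the middle 50% of values. In pair 3 the medians are -0.57 for ribosomal protein, -0.87 for polymerase, -0.72 for other and -1.06 for photosynthesis genes, and 0.00 for all genes.

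Counting pairs over the 24 genes, 8 were lower in YFP-positive cells in all 3 pairs, against 13.3% of all genes and 20.3% of the brighter genes. A gene with equal values in pair 1 cannot be lower in all 3 pairs, so the shares were also taken, after these values were seen, over genes with unequal values in pair 1. They were then 8 of 23 of the housekeeping genes, against 25.5% of 8643 genes and 27.6% of 6439 brighter genes. These 8 were rps2, rps4, rpl14, rpl20, rpl36, rpoC1, accD and ccsA. A further 14 were lower in 2 pairs and 2 in 1 pair, and 0 were higher in all 3. The mean of the 2 arrays of a number varied over the 3 numbers by 0.18 for rps18 and by up to 1.55, for rpl32.

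Genes that lie together on the plastid genome were set side by side, with operons taken from general knowledge of plastid genomes. In the cluster of ribosomal protein genes, the differences in pair 2 were 0.30 for rps19, 0.15 for rpl16, -0.28 for rpl14, -0.17 for rpl36 and 0.49 for rpoA, and all 5 were negative in pairs 1 and 3. rps14 shares an operon with the photosystem I genes psaA and psaB. Its neighbour psaB had pair differences of -0.25, -0.08 and -1.26, against 0.46, -0.44 and -0.56 for rps14 itself. ycf4 and cemA lie between psaI and petA, for subunits of photosystem I and of the cytochrome b6f complex. psaI had pair differences of 0.16, -0.70 and -0.89, beside 0.30, -0.58 and -0.95 for ycf4, and petA had -0.27, -0.48 and -1.06. rps2 stands next to the ATP synthase gene atpI, whose pair differences were 0.00, -0.32 and -0.78, against -0.17, -0.07 and -0.48 for rps2.

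**Figure D4:**
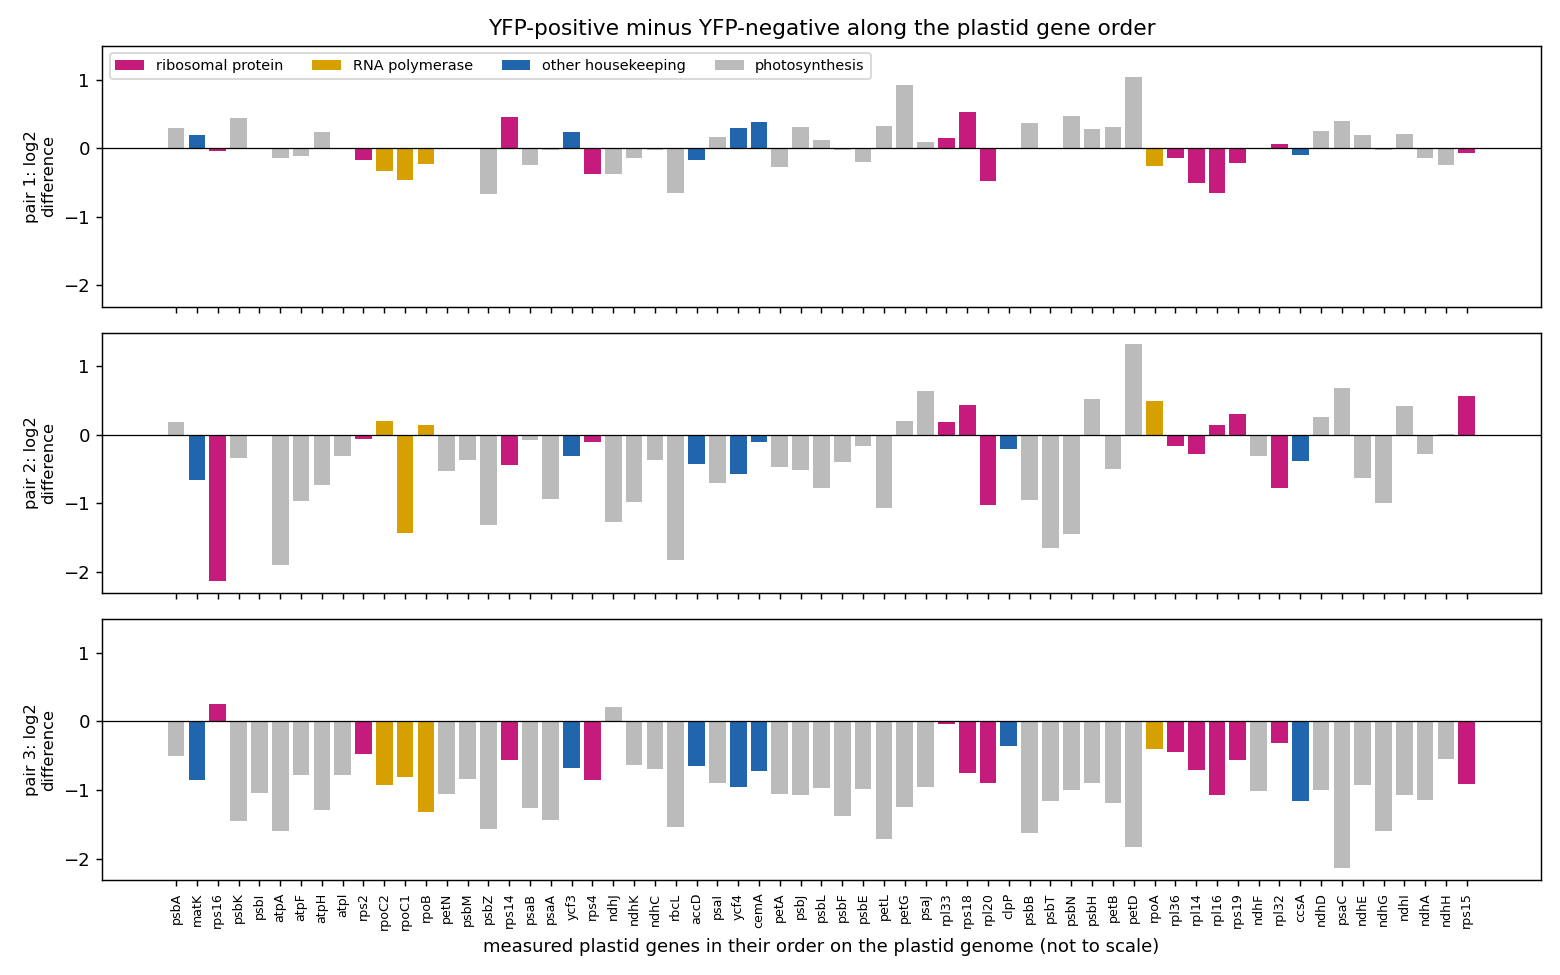
Log2 difference (YFP-positive minus YFP-negative) of the 63 measured plastid genes in their order on the plastid genome, in pairs 1 (top), 2 (middle) and 3 (bottom), coloured by class. Bars point both ways in pair 1 and almost all point down in pair 3, where 23 of 24 housekeeping and 38 of 39 photosynthesis genes lie below 0. In pair 3 this holds for 48.2% of all genes.

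The 39 plastid photosynthesis genes had a median difference of -0.48, against -0.35 for the 24 housekeeping genes, and pair medians of 0.00, -0.48 and -1.06. Whether these medians differ was not tested. Of the 39, 14 were lower in YFP-positive cells in all 3 pairs (13.3% of all genes and 20.3% of the brighter genes). Equal values in pair 1, which bar a gene from this count, occurred in 4 of the 39 and in 7907 of all 16550 genes. In 4 of the 39 the YFP-positive group lay lower without overlap (4.34% of all and 6.9% of brighter genes). In limma 0 passed, and 3 had an unadjusted p under 0.05 (7.96% of all genes). rbcL, for the large subunit of Rubisco, had a difference of -1.34, beyond that of every housekeeping gene.

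The nuclear genes whose products work with these plastid genes were sparsely named on the array, with 21 of 95 listed genes measured. Of these 21, 0 passed in limma with or without the block (0 at an unadjusted p under 0.05 in either fit), 12 had negative differences and the median was -0.14. Of 40 nuclear genes for plastid ribosomal proteins 10 were measured, with 6 negative and a median of -0.24. Those with the lowest p were AT3G13120 (PRPS10) at -0.43 (SE 0.28), AT5G47190 (PRPL19a) at 0.79 (SE 0.70) and AT3G54210 (PRPL17) at -0.34 (SE 0.31). AT4G17560 (PRPL19b), listed for the same protein and named after its values were seen, was at -0.53 (SE 0.53). The pair medians of the 10 were -0.35, 0.08 and -0.18, beside -0.14, -0.11 and -0.57 for the 13 plastid-encoded ribosomal protein genes, and whether these differ was not tested.

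Of 13 nuclear genes of the Clp protease 5 were measured, with a median of 0.08. AT1G09130 (CLPR3), a subunit related to ClpP, was at 0.44 (SE 0.45), AT4G25370 (CLPT1) at -0.30 (SE 0.32) and CLPP4, a proteolytic subunit, at 0.12 (SE 0.29). The only measured gene among 21 polymerases, sigma factors and polymerase-associated proteins was AT5G15700 (RPOTmp), a phage-type polymerase of plastids and mitochondria. It stood at 3.11, 1.85 and 3.10 in YFP-positive replicates against 3.36, 1.95 and 4.04 in YFP-negative replicates, a difference of -0.43 (SE 0.64). Of 17 genes for import, cytochrome maturation, photosystem I assembly and splicing 5 were measured, with a median of -0.09; AT1G22700 (PYG7), CFM3B and CcdA were at 0.24, 0.32 and -0.15. None of the 4 nuclear partners of accD was measured under a name.

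Other signals moved with the plastid genes. Of 47 nuclear photosynthesis genes taken as mesophyll markers 8 were measured, 7 of them with negative differences and 0 passing in limma. At an unadjusted p under 0.05 the unblocked limma fit gave 1, PSBW (7.96% of all genes), and the blocked fit gave 3 (13.8% of all genes). In 4 of the 8 every YFP-positive value lay under every YFP-negative value (4.34% of all genes and 6.9% of the brighter genes). In all 3 pairs 6 of the 8 were lower in YFP-positive cells (13.3% of all genes and 20.3% of the brighter genes). Their median level was 5.91, 5.85 and 5.99 in YFP-positive replicates against 6.16, 6.54 and 7.07 in YFP-negative replicates, with pair medians of -0.29, -0.44 and -1.05. PSBW, a photosystem II subunit, was at 7.51, 8.0 and 7.82 against 8.08, 9.40 and 9.25, and LHCB4.1, an antenna protein, at 7.76, 8.11 and 8.38 against 7.77, 8.14 and 8.19. PRK, a Calvin cycle kinase, lay under the array median on all 6 arrays. The 16 mitochondrial genes measured had a median difference of -0.50, with all 16 below 0 (54.7% of all genes) and 0 passing in limma. Of these 16, 6 were lower in YFP-positive cells in all 3 pairs (13.3% of all genes and 20.3% of the brighter genes). Their pair medians were -0.05, 0.03 and -1.58. Neither the negative median nor the gap in pair 3 was thus confined to plastid genes. The part of these signals in the differences of the plastid genes was not tested, and fewer cells of a type and less RNA per cell cannot be told apart in sorted pools.

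The label of the YFP-positive group could be checked only in part. Of 21 phloem markers 6 were measured, SEOR1 and APL not among them, and 5 had positive differences (7498 of all 16550 genes and 4734 of the 8741 brighter genes). Besides CLE45 these were AT5G02460 (PEAR2) at 1.70 (SE 0.82), OPS at 0.73 (SE 1.03), CLE26 at 0.35 (SE 0.42) and CLE25 at 0.13 (SE 0.55). OPS turned to -0.21 without YFP-negative replicate 2 and CLE26 to -0.07 without YFP-positive replicate 3. CLE25 turned to -0.28 without YFP-negative replicate 1 and to -0.23 without YFP-positive replicate 3. CLE26 lay under the array median on all 6 arrays. CLE45, a peptide gene of early phloem, stood at 4.40, 3.47 and 4.56 in YFP-positive replicates against 2.2, 1.44 and 2.34 in YFP-negative replicates, and passed in limma only with the replicate block (adjusted p = 0.0444, against 0.0951 without it). For CLE45 and PEAR2, 2 of the 6 markers, every YFP-positive value lay above every YFP-negative value. This held for 821 of all 16550 genes and 730 of the 8741 brighter genes. SWEET11, a sucrose exporter and the phloem marker with a negative difference, stood at 4.11, 1.39 and 5.08 in YFP-positive replicates against 4.11, 2.29 and 7.92 in YFP-negative replicates. Its difference was -1.25 (SE 1.62), which turned to 0.33 without YFP-negative replicate 3. Of 9 xylem markers 1 was measured, GUT2, at -0.49 (SE 0.59), with no call. Its pair differences were 0.00, 0.81 and -2.29, and its difference turned to 0.07 without YFP-negative replicate 3. Of 5 markers of epidermis and guard cells 3 were measured, FMA, MUTE and SPCH, at -1.17, -0.26 and -0.12, with no call. FMA stood at 1.5, 0.98 and 2.33 in YFP-positive replicates against 1.5, 1.4 and 5.42 in YFP-negative replicates, and without YFP-negative replicate 3 its difference turned to 0.16. MUTE and SPCH lay under the array median on all 6 arrays.

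The precision set what could be seen. The SE of the 24 differences ran from 0.25 to 0.59, with a median of 0.35, and with the block from 0.14 to 0.57, with a median of 0.24. The 95% intervals of the unblocked fit reached down to -2.07 and up to 1.08 over the 24 genes. For all of the 24 except rpl20 the unadjusted unblocked interval held 0.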

How the data were processed

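Per the labels' protocols, RNA of the sorted protoplasts was amplified (NuGEN Ovation) before biotin labelling. How well this takes up plastid transcripts, which mostly lack a poly(A) tail, was not tested. The authors deposited 1 table of log2 values for 38408 probe sets on 6 arrays, for which the submitters' processing notes name RMA, with its version not given in the sources used here. That they are log2 follows from their range (-0.11 to 13.39) and RMA's usual output. Array medians were 2.61, 2.2 and 2.92 in YFP-positive and 2.55, 2.10 and 2.80 in YFP-negative replicates 1 to 3, so arrays of different numbers were not set on 1 joint distribution. Probe sets differ in affinity, so levels were not compared between genes.

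Probe sets were named by the platform annotation, and RefSeq (TAIR10.1) supplied current symbols for 16411 of 16550 gene IDs. Among probe sets 16722 had 1 gene, 759 had several and 20927 are not named here. Where a gene had several probe sets (146 genes, none of the 24), the one with the highest mean was used. Nothing states the build, so no coordinates are given; the reference gave the order of genes.

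Differences were fitted over all genes with limma 3.58.1 in R 4.3.3 (lmFit, eBayes), two-sided; p-values were adjusted over all 16550 genes (Benjamini-Hochberg, threshold 0.05) and the fit was tested on simulated data. Brighter genes were the 8741 whose mean exceeded the mean of the array medians. Same-numbered arrays deviated together from their group means (correlations across genes of 0.664, 0.607 and 0.489), so the numbers were taken to pair the arrays; both fits are given. Mitochondrial genes were taken by symbol (matR, atp1 and those starting in cox, nad or ccb) among IDs without a RefSeq match. The members and lists were chosen with earlier results of these data known, and the operons after the table was opened. Every member could be named; of each list of nuclear partners the 3 measured genes with the lowest p were named, and of the photosynthesis genes rbcL and direct neighbours within an operon; psaA is named only as a member of its operon. Alternatives were array median centring, quantile normalization, dim genes left out, the block, mean of probe sets, all probe sets tested, limma-trend with robust eBayes, and each array or pair left out; the block with each scaling was added after seeing the data.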

Additional observations from a re-analysis of the deposited data

How the results depend on the processing

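Under 18 alternatives no plastid housekeeping gene and no nuclear partner passed an adjusted p of 0.05 in limma; the lowest adjusted p of a housekeeping gene was 0.13, and 0 to 3 of the 24 had an unadjusted p under 0.05. With the replicate block the median differences equalled those of the unblocked fit (-0.35 for all 24 genes), and the block changed no call among them. Of the 24 genes, 22 lay below 0 in the unblocked fit, 23 with array medians centred and 17 without both arrays numbered 3. The median of all genes was -0.13 with array medians centred, against -0.04 as deposited. When arrays were left out, the median of the 24 ranged from -0.49 to -0.13 (the value without both arrays numbered 3), of the ribosomal protein genes from -0.46 to -0.15, of the polymerase genes from -0.75 to -0.05 and of the other genes from -0.53 to -0.14. The sign held under every alternative in 13 genes. With array medians centred, rps18 turned to -0.022, with or without the replicate block. The other reversals came when arrays were left out, with ranges of -0.55 to 0.20 for cemA, -0.90 to 0.087 for rpl32, -0.095 to 0.34 for rpl33, -0.35 to 0.22 for rpoA, -0.50 to 0.065 for rps14, -0.50 to 0.25 for rps15, -1.09 to 0.10 for rps16, -0.16 to 0.48 for rps18, -0.59 to 0.083 for rps19, -0.44 to 0.050 for rps2 and -0.53 to 0.13 for ycf3; the cause was not tested. Over all genes limma called 179, against 384 with array medians centred, 338 among brighter genes only, 327 with limma-trend and robust eBayes, 90 with the block, 458 and 281 with the block and array medians centred or quantile normalization, and 38 and 37 without YFP-negative and YFP-positive replicate 3. Signal over background was not analysed here. Leaving out both arrays numbered 1 or 3 gave 0 calls over all genes in limma (1257 and 823 at an unadjusted p under 0.05), so those settings say nothing about calls.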
